A study of Mus musculus with 6 samples.

Results

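The 10 circadian clock genes Arntl, Clock, Npas2, Per1, Per2, Per3, Cry1, Cry2, Dbp and Tef were taken from the 22134 genes of the deposited table by their symbols, as activators, repressors and output factors of the clock. All 10 were in the table. Total RNA had been sequenced from 6 adipose tissue samples of wild-type (WT) mice. Creeping fat is mesenteric fat that extends over injured bowel, and its 3 libraries came from mice whose colon had been cauterised repeatedly. The other 3 libraries were of mesenteric adipose tissue from healthy controls without injury. The labels do not say whether each sample is from its own animal, so a p-value here speaks of the spread among these samples, part of which may be technical. No source used here gives the strain, the age or the time of day at which tissue was taken.

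In mammalian cells the clock is a feedback loop of transcription. CLOCK, or its paralogue NPAS2, pairs with BMAL1, the product of Arntl, and the pair binds E-box sequences and activates the Per and Cry genes. PER and CRY proteins then repress that pair, while nuclear receptors such as REV-ERB act on Arntl through a second element, the RORE. DBP, TEF and HLF activate genes through the D-box, where NFIL3 represses. Adipose tissue carries such a clock, and its Arntl and Dbp transcripts peak at opposite times of day.

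These elements can be read in the promoters of the members. Windows of 300 bases, 250 before to 50 after a RefSeq transcription start (GRCm38.p6), were at hand for 9 of the 10 genes, 14 windows in all. Per2 had no entry. The 5 windows below are shown because they hold the element their gene is known for, or, for Cry2, because that gene was the member called between the groups. Each is written 5′ to 3′ on the strand of its gene, and capitals mark a match to 1 of 3 motifs on either strand. The motifs were the E-box CACGTG, the D-box TTATGTAA or TTACGTAA, and the core of the RORE, TAGGTCA or TGGGTCA. No match overlapped another.
Arntl, chr7:113207261-113207560, plus strand: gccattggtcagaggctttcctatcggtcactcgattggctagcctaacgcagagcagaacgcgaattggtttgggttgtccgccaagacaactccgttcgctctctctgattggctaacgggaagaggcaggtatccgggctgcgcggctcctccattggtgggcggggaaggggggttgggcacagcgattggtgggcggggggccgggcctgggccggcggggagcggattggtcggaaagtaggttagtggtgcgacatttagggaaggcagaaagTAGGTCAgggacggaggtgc
Per1, chr11:69098699-69098998, plus strand: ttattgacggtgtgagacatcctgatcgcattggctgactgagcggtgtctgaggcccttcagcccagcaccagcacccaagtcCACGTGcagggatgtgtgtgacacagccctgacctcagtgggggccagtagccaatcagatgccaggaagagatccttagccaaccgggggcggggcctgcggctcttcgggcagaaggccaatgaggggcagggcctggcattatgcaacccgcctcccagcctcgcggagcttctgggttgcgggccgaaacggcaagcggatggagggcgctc
Per3, chr4:151044616-151044915, minus strand: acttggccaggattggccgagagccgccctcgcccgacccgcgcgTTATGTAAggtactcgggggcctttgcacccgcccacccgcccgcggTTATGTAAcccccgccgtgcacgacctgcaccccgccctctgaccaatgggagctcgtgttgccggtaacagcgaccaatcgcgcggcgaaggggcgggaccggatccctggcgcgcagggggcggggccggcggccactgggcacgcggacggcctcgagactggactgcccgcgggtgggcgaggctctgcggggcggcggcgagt
Cry1, chr10:85185005-85185304, minus strand: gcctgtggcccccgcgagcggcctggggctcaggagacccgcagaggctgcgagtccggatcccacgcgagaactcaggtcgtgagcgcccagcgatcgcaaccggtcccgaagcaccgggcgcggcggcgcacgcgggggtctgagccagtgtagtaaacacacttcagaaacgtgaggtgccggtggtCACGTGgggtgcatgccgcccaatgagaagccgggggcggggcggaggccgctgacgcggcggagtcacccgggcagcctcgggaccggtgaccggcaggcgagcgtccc
Cry2, chr2:92434020-92434319, minus strand: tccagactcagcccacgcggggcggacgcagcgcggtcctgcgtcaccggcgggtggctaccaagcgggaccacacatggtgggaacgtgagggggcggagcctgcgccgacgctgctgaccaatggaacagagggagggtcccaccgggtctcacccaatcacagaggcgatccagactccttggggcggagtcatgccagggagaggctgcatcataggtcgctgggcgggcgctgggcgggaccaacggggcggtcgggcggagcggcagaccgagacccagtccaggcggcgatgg

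The E-box was found in 4 of the 14 windows, against 7.15% of all 32851 windows of the mouse table. These were the window of Cry1, 60 bases before its start, 1 of the windows of Per1, 166 bases before the start, and both windows of Tef. Of the members' windows, that of Per3 alone held the D-box in the letters searched, in 2 copies 205 and 158 bases before its start. Of all windows 1.06% held at least 1. A RORE core in the letters searched lay in 1 of the Arntl windows, 30 bases after the start, against 6.45% of all windows. The Cry2 window held none of the 3 motifs. For any window, a missing match says only that these exact letters are not in it. Variants that differ by a base were not searched, such as ttatgcaa in the Per1 window and taggtta in the Arntl window above.

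Values are FPKM, fragments scaled by the length of the gene and by the size of the library. The totals used in that scaling, recovered from the values, were 36158204, 34934843 and 32837045 reads for creeping fat 1 to 3. For control 1 to 3 they were 38867151, 31186018 and 43415696 reads. Reads of the listed genes made up 99.46% to 99.57% of these totals, so they do not give the depth of sequencing. The least covered member in any library was Dbp, with 177 reads in control 2, and the most covered was Clock, with 7894 reads in control 3. The test was limma on log2(FPKM + 1) over the 12812 genes that reached 1 FPKM in 3 or more libraries, and all 10 members were among them. A gene was called at a Benjamini-Hochberg adjusted p under 0.05. Fold changes are creeping fat minus control on that log2 scale, with the standard error (SE) of the fit, and the added 1 makes them smaller than the true change where levels are low.

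The composition of the libraries differed between the groups. All 10 adipocyte markers fell, with a summed level of 780 to 1663 FPKM in creeping fat and 4016 to 10810 FPKM in controls, and none was at 0 in any library. Of 10 fibroblast markers 9 rose, with sums of 9825 to 13480 FPKM in creeping fat against 932 to 1204 FPKM in controls, and of 10 macrophage markers 7 rose. The macrophage marker Cd163 went the other way without being called, with means of 9.67 FPKM in creeping fat and 20.4 FPKM in controls (limma, adjusted p = 0.131). Seminal vesicle markers made up 4.98% to 8.96% of all FPKM of a creeping fat library and up to 0.0159% of a control, and 8 of the 9 were at 0 in control 1. Pancreatic acinar markers made up 1.23% of creeping fat 2, far less of the other creeping fat libraries, and 3.90% to 10.07% of the controls. Control 2 stood apart from the other controls, with an adipocyte sum of 4016 FPKM and a B and T cell sum of 337 FPKM against 85.7 and 108 FPKM in control 1 and 3. These shares differ with the group as do the clock genes that differ below, and their part in those differences was not tested. In whole tissue fewer cells of a type and less RNA per cell cannot be told apart.

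Of the 10 clock genes, Cry2 fell in creeping fat and no member rose. The background share was 6.81% of genes called lower and 9.35% called higher, so 1 call among 10 genes is near the background of 16.2% in either direction. At an unadjusted p under 0.05 in limma, 4 members were lower and 1 was higher, against 13.7% of all genes tested lower, 17% higher and 30.8% in either direction. Limma's voom on the recovered reads also called 1 member lower, Cry2, and none higher. The groups did not overlap in 5 of the 10 members, Clock, Per2, Cry1 and Cry2 being lower and Per1 higher, against 16.9% of all genes tested lower, 20.2% higher and 37% in either direction. The median log2 difference of the members was -0.21, against 0.02 for all genes tested, and the median size of a difference without its sign was 0.39 against 0.29.

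**Figure D1:**
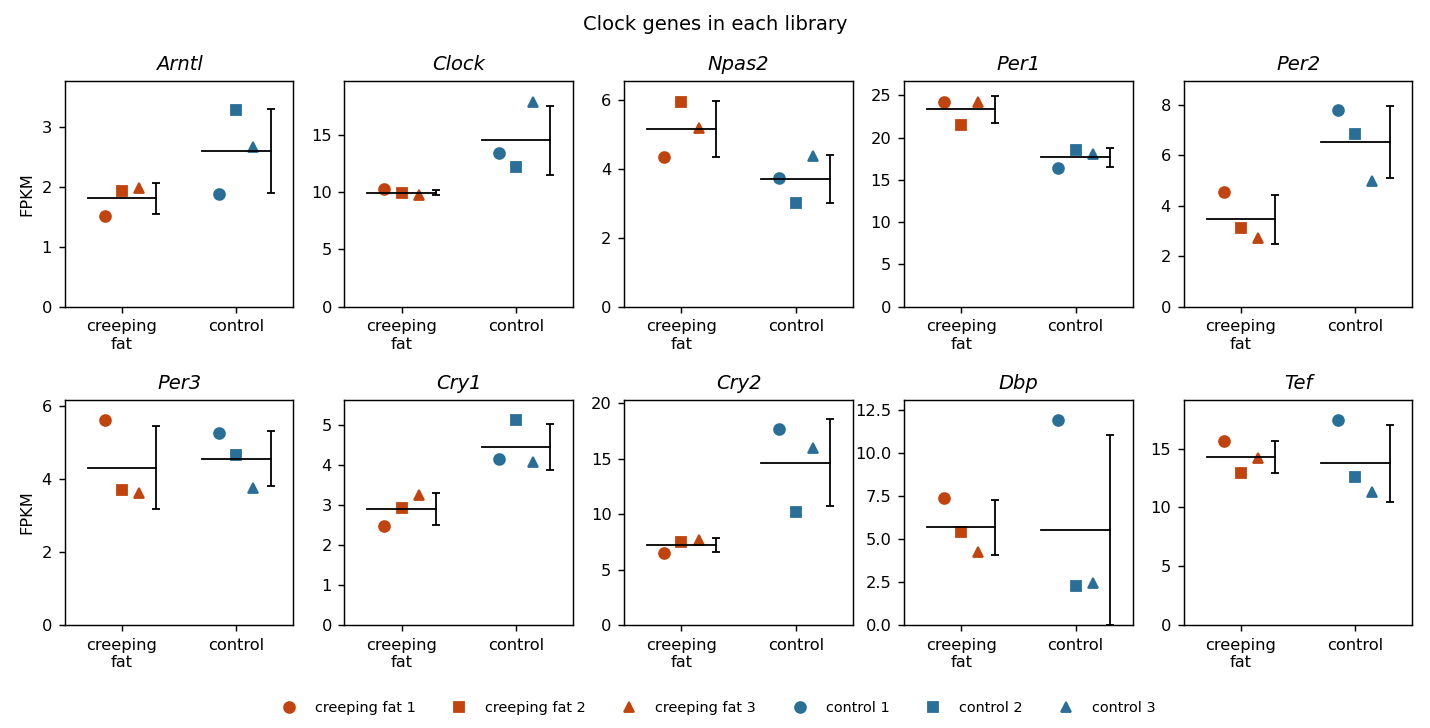
FPKM of each clock gene in the 3 creeping fat libraries (left of each panel) and the 3 control libraries (right), with marker shapes for the library number, horizontal lines for the group means and bars for 1 SD. Clock, Per2, Cry1 and Cry2 sat lower in every creeping fat library than in every control, Per1 sat higher, and Dbp ranged widely in the controls.

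Levels of the members, per length, were low to moderate. From high to low, the order of mean levels in creeping fat was Per1, Tef, Clock, Cry2, Dbp, Npas2, Per3, Per2, Cry1 and Arntl, with 23.4 ± 1.57 FPKM for Per1 and 1.80 ± 0.253 FPKM for Arntl (SD, n = 3). In controls the order was Per1, Cry2, Clock, Tef, Per2, Dbp, Per3, Cry1, Npas2 and Arntl, with 17.7 ± 1.13 FPKM for Per1 and 2.60 ± 0.702 FPKM for Arntl (SD, n = 3). Neighbours in the middle of these orders lay within their spread, among them Cry2, Clock and Tef in controls at 14.6 ± 3.94, 14.5 ± 3.01 and 13.7 ± 3.25 FPKM. The place of Arntl, and of the other members, depends on the length the authors counted. Recovered lengths and exonic bases in GENCODE M21 were 8573 and 5631 for Per1, 4138 and 6320 for Cry2, and 10130 and 13727 for Clock. The recovered length of Arntl was 19267 bases, against 7523 exonic bases in GENCODE M21, so its FPKM is lower than its 1055 to 2227 reads per library would give over the shorter length.

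Among the activators, Clock, which encodes a partner of BMAL1, had 10.3, 9.90 and 9.79 FPKM in creeping fat 1 to 3 and 13.5, 12.2 and 17.9 FPKM in control 1 to 3. The groups did not overlap, and the creeping fat libraries lay within a range of 1.05-fold. The difference was -0.48 ± 0.17 (SE), which did not pass over all genes tested (adjusted p = 0.0997). Without control 2 it was -0.59 and passed (adjusted p = 0.0198), a setting in which the median of all genes tested also moved to 0.13. That setting called 2896 genes higher and 1857 lower, against 1198 and 872 with all libraries. Clock lies on the minus strand of chromosome 5 from 76209868 to 76304792 (GRCm38, GENCODE M21).

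Npas2, the paralogue that can take the place of CLOCK, had 4.34, 5.96 and 5.20 FPKM in creeping fat and 3.75, 3.00 and 4.39 FPKM in controls. Creeping fat 1 and control 3 were about level, so the groups overlapped by a narrow margin. The difference was 0.39 ± 0.18 (SE; adjusted p = 0.191), opposite in sign to that of Clock. The ratio of Npas2 to Clock within a library, which no scaling of the library changes, was 0.423, 0.602 and 0.531 in creeping fat against 0.279, 0.246 and 0.245 in controls. Every creeping fat library had the higher ratio, by 1.01 on the log2 scale, with an exact two-sided permutation p of 0.1, the smallest that 3 libraries against 3 allow. This pair, like those of Per1 with Per2 and Cry2 with Cry1, was chosen after the values were seen.

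Arntl, the gene of BMAL1, had 1.51, 1.92 and 1.98 FPKM in creeping fat and 1.87, 3.27 and 2.66 FPKM in controls. Control 1 lay among the creeping fat libraries, so the groups overlapped. The difference was -0.35 ± 0.19 (SE; adjusted p = 0.282), with a 95% interval from -0.80 to 0.11. The gene lies on the plus strand of chromosome 7 from 113207465 to 113314126.

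The repressors held the member that was called. Cry2, a cryptochrome that represses the activator pair, had 6.50, 7.48 and 7.68 FPKM in creeping fat and 17.7, 10.2 and 16.0 FPKM in controls. The creeping fat values were close together and all below the lowest control, control 2. Cry2 fell by 0.90 ± 0.22 (SE) in creeping fat (adjusted p = 0.0335), to 7.22 ± 0.632 FPKM against 14.6 ± 3.94 FPKM in controls (SD, n = 3). The call was lost with any library but control 2 left out, at adjusted p of 0.0905 to 0.132, and was kept without control 2, at -1.12. Among the controls Cry2 was lowest in control 2, where the adipocyte markers were also lowest. Control 2 also had the highest macrophage, B and T cell and pancreatic acinar sums of the controls, and the lowest smooth muscle sum. Between control 1 and control 3, Cry2 and the adipocyte sum ran in opposite order. Whether the adipocyte share or another share bears on Cry2 was not tested. Cry2 lies on the minus strand of chromosome 2 from 92403646 to 92434043, and 295 of its 6320 exonic bases overlap the transcript D930015M05Rik on the opposite strand, whose reads cannot be told apart without a stated strand setting.

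Cry1, the other cryptochrome, had 2.46, 2.93 and 3.25 FPKM in creeping fat and 4.14, 5.11 and 4.07 FPKM in controls. Each creeping fat library was below each control. The difference was -0.49 ± 0.16 (SE; adjusted p = 0.0802), and it passed after quantile normalization (-0.53, adjusted p = 0.0341) and with scaling to the upper quartile (-0.51, adjusted p = 0.0407). In those same settings the call of Cry2 was lost (adjusted p = 0.0688 and 0.0578). The ratio of Cry2 to Cry1 within a library was 2.64, 2.56 and 2.36 in creeping fat and 4.28, 2.00 and 3.93 in controls, so it overlapped through control 2, and the exact two-sided permutation p was 0.4.

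The Per genes differed in direction among themselves. Per2 had 4.56, 3.11 and 2.73 FPKM in creeping fat and 7.79, 6.83 and 4.99 FPKM in controls. The highest creeping fat library, creeping fat 1, came near the lowest control, control 3, without reaching it. The difference was -0.76 ± 0.22 (SE; adjusted p = 0.0603), the second in size among the members. Its 95% interval ran from -1.28 to -0.24 before adjustment for the genes tested.

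Per1, which is also induced quickly by glucocorticoids and cAMP, had 24.3, 21.5 and 24.3 FPKM in creeping fat and 16.4, 18.6 and 18.1 FPKM in controls. All creeping fat libraries were above all controls, and within each group the highest was 1.13-fold the lowest. The difference was 0.38 ± 0.13 (SE; adjusted p = 0.0955), and it passed without control 2 (0.42, adjusted p = 0.0356). Many more genes passed in that setting, 2896 higher and 1857 lower, against 1198 and 872 with all libraries. Per1 holds the E-box shown above, as does Cry1, whose difference had the opposite sign. The ratio of Per1 to Per2 within a library was 5.33, 6.93 and 8.89 in creeping fat and 2.11, 2.72 and 3.62 in controls. It was higher in every creeping fat library, by 1.33 on the log2 scale (exact two-sided permutation p = 0.1, the smallest possible).

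Per3, whose promoter window carries the pair of D-boxes, had 5.62, 3.69 and 3.62 FPKM in creeping fat and 5.27, 4.66 and 3.77 FPKM in controls. The groups overlapped throughout. The difference was -0.08 ± 0.20 (SE; adjusted p = 0.842), with a 95% interval from -0.55 to 0.39, and its sign turned when creeping fat 2, creeping fat 3 or control 1 was left out. The planned ratio of Per3 to Npas2 was 1.29, 0.619 and 0.697 in creeping fat and 1.41, 1.55 and 0.858 in controls, with overlap through creeping fat 1 (exact two-sided permutation p = 0.2).

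**Figure D2:**
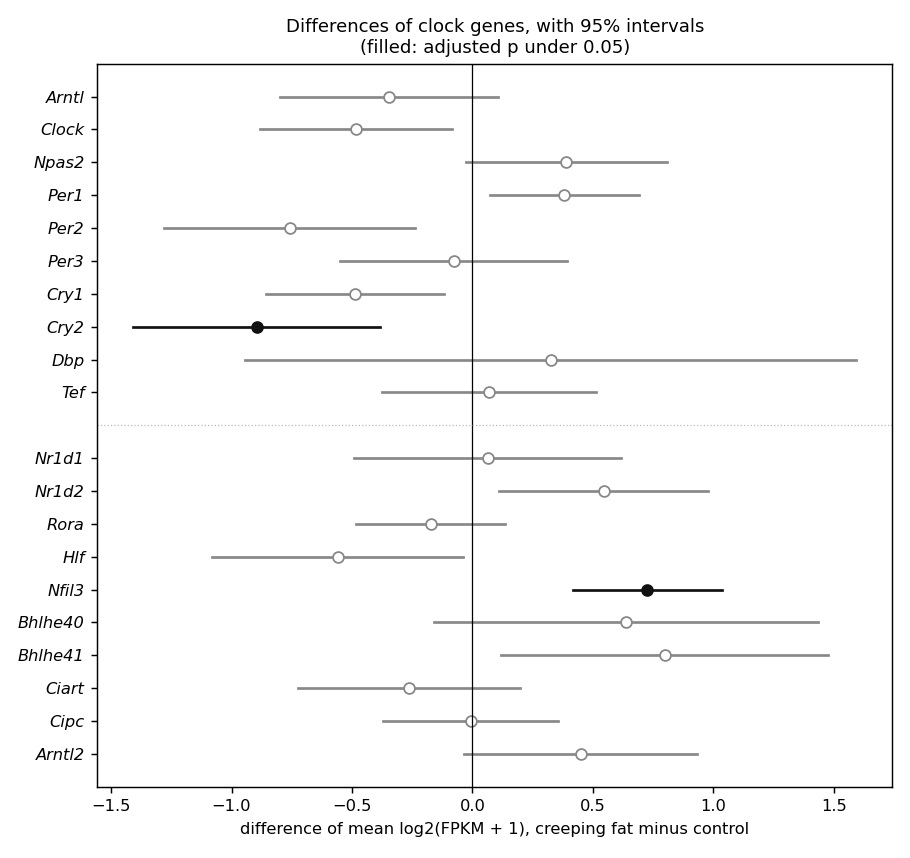
Creeping fat minus control on the log2(FPKM + 1) scale, as points with 95% intervals not adjusted for multiple tests, for the 10 clock genes (above the dotted line) and 10 tested genes of the second loop and of the output (below it). Filled points passed an adjusted p under 0.05, and these were Cry2, to the left of 0, and Nfil3, to the right.

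Neither output factor passed the test. Dbp, a bZIP activator that cycles strongly in many tissues, had 7.40, 5.39 and 4.24 FPKM in creeping fat and 11.9, 2.24 and 2.42 FPKM in controls. Control 1 was the highest of all 6 libraries and the other controls were the lowest, so the creeping fat libraries lay between them. The difference was 0.32 ± 0.53 (SE; adjusted p = 0.745), with a 95% interval from -0.95 to 1.59. It was 0.975 without control 1 (adjusted p = 0.0539) and -0.02 without control 2. The highest control was 5.31-fold the lowest, and the SD of Dbp among the controls, 1.13 on the log2 scale, was at the 98.1 percentile of all genes tested, against the 88.8 percentile for its SD of 0.34 in creeping fat. Of the 2993 exonic bases of Dbp, on chromosome 7 from 45705088 to 45710203, 539 overlap Sphk2 on the opposite strand.

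Tef, another activator of the same family, had 15.7, 13.0 and 14.2 FPKM in creeping fat and 17.4, 12.5 and 11.3 FPKM in controls. Control 1 was again the highest and the groups overlapped. The difference was 0.07 ± 0.19 (SE; adjusted p = 0.851), and was -0.05 without control 3. Tef shares 193 of its exonic bases with the antisense gene Gm17597.

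Within each group the library numbered 1 was highest for some members and lowest for others. Creeping fat 1 had the highest level of 6 of the 10 members in its group, and control 1 of 5, and 4 of these were the same, Per2, Per3, Dbp and Tef. Creeping fat 1 was lowest for 4 members and control 1 for 2, with Arntl lowest in both. Per1 was highest in creeping fat 1 and lowest in control 1. The share of all genes tested that were highest in these libraries was not counted, so no background stands beside these counts. The planned ratio of Dbp to Arntl, genes that peak at opposite times of day, was 4.89, 2.81 and 2.14 in creeping fat and 6.36, 0.686 and 0.910 in controls. It overlapped fully between the groups, and its difference of 0.96 on the log2 scale had an exact two-sided permutation p of 0.4. The summed smooth muscle markers, too, were highest in library 1 of each group. The sums were 643, 553 and 401 FPKM in creeping fat and 516, 192 and 239 FPKM in controls. In creeping fat this order was that of Acta2 alone, at 427, 278 and 204 FPKM. Myh11, Cnn1, Des, Smtn and Tagln were highest in creeping fat 2. In controls each of the 6 markers was highest in control 1. The part of these markers in the levels of Dbp was not tested.

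**Figure D3:**
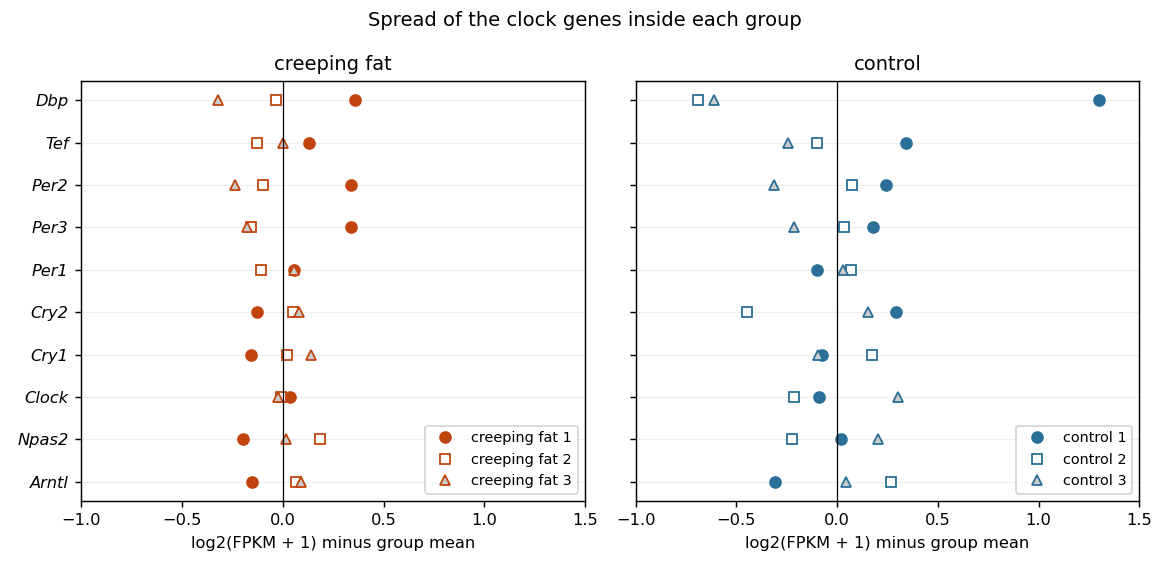
Level of each clock gene in each library, as log2(FPKM + 1) minus the mean of its group, for creeping fat (left) and control (right). In both panels library 1 lies to the right for Dbp, Tef, Per2 and Per3 and to the left for Arntl, and the distance is longest for Dbp in control 1.

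**Figure D4:**
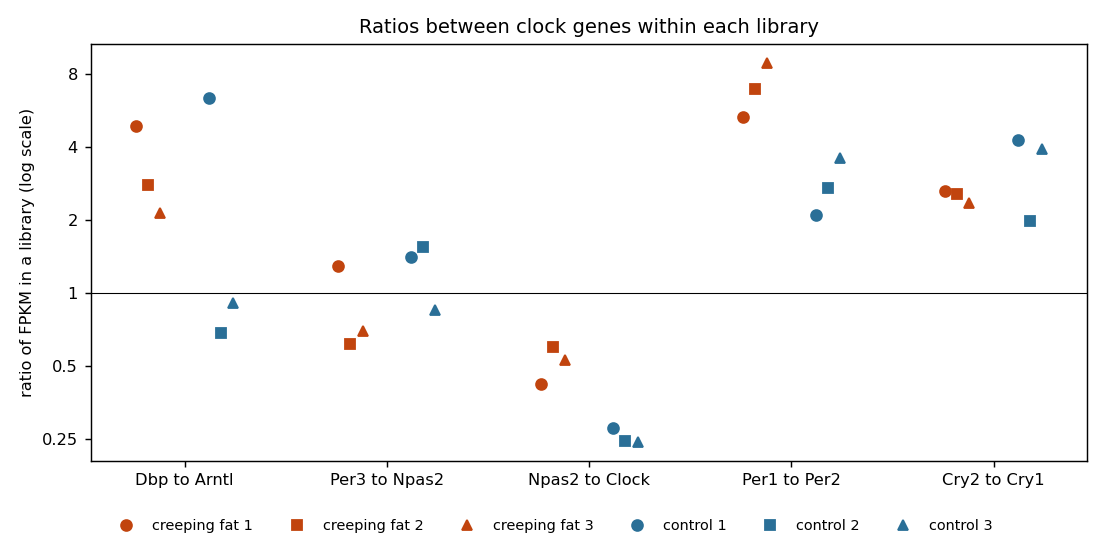
Ratios of FPKM between pairs of clock genes within each library, on a log scale, for creeping fat (left of each pair) and control (right). The ratios of Npas2 to Clock and of Per1 to Per2 were higher in every creeping fat library than in every control, and the other 3 overlapped.

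The genes whose level over the 6 libraries was most like that of Dbp, by root mean square distance between centred log2(FPKM + 1) values, were Myl9 (0.224), Pcp4l1 (0.321) and Lmod1 (0.345). Myl9, which encodes a myosin light chain, had 201.5, 190.1 and 134.3 FPKM in creeping fat and 240.8, 83.3 and 99.6 FPKM in controls. Like Dbp, it was highest in control 1 and lowest in the other controls. For Arntl the nearest were Zkscan3 (0.0148), Aptx (0.0418) and Has3 (0.0471), with Zkscan3, a zinc finger gene, at 9.26, 10.98 and 11.1 FPKM in creeping fat and 10.7, 16.8 and 13.8 FPKM in controls. These distances describe 6 libraries and 12812 genes.

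**Figure D5:**
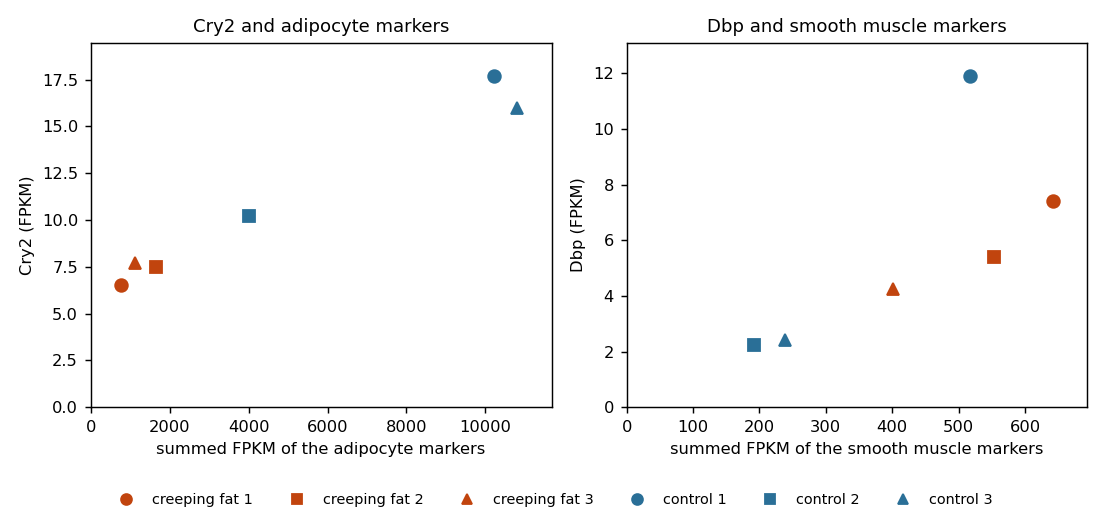
Left, Cry2 (FPKM) against the summed FPKM of 10 adipocyte markers, and right, Dbp (FPKM) against the summed FPKM of 6 smooth muscle markers, in each of the 6 libraries. Cry2 was lowest in the creeping fat libraries, which had adipocyte sums of 780 to 1663 FPKM. Dbp was highest in control 1, at 11.9 FPKM with a smooth muscle sum of 516 FPKM. Creeping fat 1 and 2 had higher smooth muscle sums, 643 and 553 FPKM, with less Dbp, 7.40 and 5.39 FPKM.

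In the second loop and the other output regulators, 1 of 11 tested genes of a list of 12 rose and none fell. The 1 call is near the share of all genes tested that were called higher, 9.35%, and the median difference of the list was 0.06 against 0.02 for all genes. Limma gave 3 higher and 2 lower at an unadjusted p under 0.05, where 17% and 13.7% of all genes were, and voom on the recovered reads called 1 higher and none lower. Nfil3, the repressor at the D-box, had 10.1, 10.4 and 9.18 FPKM in creeping fat and 6.05, 5.19 and 5.49 FPKM in controls. The groups lay far apart for their spread. Nfil3 rose by 0.73 ± 0.13 (SE; adjusted p = 0.0129), and its adjusted p was 0.0692, 0.0639 and 0.0602 without creeping fat 1, creeping fat 2 or control 3.

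Other genes of that list, named after their values were seen, did not pass. Nr1d1, which encodes REV-ERB alpha, had 36.3, 28.4 and 22.4 FPKM in creeping fat and 34.6, 22.2 and 26.4 FPKM in controls (0.06 ± 0.23 SE; adjusted p = 0.897). It overlaps Thra on the opposite strand by 263 exonic bases. Nr1d2, which encodes REV-ERB beta, had 16.0, 11.3 and 12.3 FPKM in creeping fat and 10.2, 8.55 and 7.40 FPKM in controls, with no overlap (0.54 ± 0.18 SE; adjusted p = 0.0924). Hlf, the third activator at the D-box, had 1.62, 1.30 and 1.70 FPKM in creeping fat and 3.90, 2.67 and 1.89 FPKM in controls (-0.56 ± 0.22 SE; adjusted p = 0.138). The groups did not overlap for Hlf either, with every creeping fat library below every control. Of the 11 tested genes of the list, the groups did not overlap in 2 that were higher and 3 that were lower. The shares of all genes tested were 20.2% and 16.9%. Rorb, at most 0.208 FPKM, was under the filter.

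No gene passed among the 13 tested of 14 kinases, ubiquitin ligase subunits and partners that act on clock proteins. By limma 1 of them was lower at an unadjusted p under 0.05 and none higher, against 13.7% and 17% of all genes, and voom called none. The median difference was 0.06. The most abundant were Csnk1d, a casein kinase that phosphorylates PER, at 34.3 ± 1.07 FPKM in creeping fat and 29.1 ± 5.01 FPKM in controls, and Fbxw11 at 23.6 ± 1.35 and 20.4 ± 1.68 FPKM (SD, n = 3). Csnk1d passed without control 2 (0.37, adjusted p = 0.0472), where 2896 of all genes were called higher, against 1198 with all libraries. Fbxw11 encodes the F-box protein beta-TrCP2.

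Of 10 output genes that cycle in many tissues, Cdkn1a, the cyclin-dependent kinase inhibitor p21, fell and none rose, against 6.81% of all genes called lower and 9.35% higher. At an unadjusted p under 0.05 in limma, 3 were higher and 4 lower, so 7 in either direction against 30.8% of all genes. The median difference was -0.13, and voom called 1 lower and none higher. Cdkn1a had 34.8, 36.3 and 24.7 FPKM in creeping fat and 50.6, 48.7 and 67.0 FPKM in controls. It fell by 0.78 ± 0.21 (SE; adjusted p = 0.0465), a call lost with any library but control 2 left out. It was also lost without the filter on low values (adjusted p = 0.0653), with upper quartile scaling (0.0592) and after rescaling without seminal vesicle and pancreatic acinar markers (0.0518).

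Because Per1 also answers to glucocorticoids, 10 genes induced by them were listed, of which 9 were tested, and 1 rose and 2 fell, against 9.35% of all genes called higher and 6.81% lower. At an unadjusted p under 0.05 in limma, 2 were higher and 2 lower, so 4 in either direction against 30.8% of all genes, and the median difference was -0.04. Zbtb16 and Pdk4 fell by 2.11 ± 0.23 and 1.89 ± 0.18 (SE; adjusted p = 0.00285 and 0.00169), and Sgk1 rose by 0.72 ± 0.19 (adjusted p = 0.0448). Zbtb16, a zinc finger transcription factor, had 13.9, 8.66 and 14.1 FPKM in creeping fat and 45.2, 55.7 and 65.0 FPKM in controls. Pdk4, a kinase that inhibits pyruvate dehydrogenase, had 6.24, 7.21 and 4.90 FPKM in creeping fat and 21.7, 26.9 and 27.2 FPKM in controls. Sgk1, a kinase, had 31.1, 30.4 and 40.7 FPKM in creeping fat and 16.7, 20.3 and 23.9 FPKM in controls, and its call was lost with any library but control 2 left out and without the filter on low values (adjusted p = 0.0598).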

How the data were processed

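Total RNA of 6 mouse adipose samples was sequenced, per the labels' protocols, with a stranded kit after ribosomal RNA removal and at an RNA integrity number of at least 7. The authors deposited 1 table of FPKM values. They used mm10, per the submitters' processing notes; no source used here gives the aligner, counting program, annotation or strand setting. Groups and numbers came from the sample titles.

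FPKM were scaled back to reads: 352 of 870 short genes gave 1 common scale, and 15900 of 15912 genes above 0 in all libraries gave whole reads within 0.002. The reads in the table made up 99.46% to 99.57% of the totals. No table row was left out.

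Genes that reached 1 FPKM in 3 or more libraries were tested on log2(FPKM + 1) with limma 3.58.1 (R 4.3.3), group as the only term, a mean-variance trend, two-sided, with Benjamini-Hochberg adjustment over all 12812 genes. Ratios within a library were compared by exact permutation. The fit and the recovery were tested on simulated data. Promoters came from RefSeq (GRCm38.p6) and gene positions from GENCODE M21.

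Members and lists were chosen with earlier results of these data known. Named were all members, up to 6 called genes of each other list by size, the 2 most abundant of a list with no call, and the 3 genes nearest to Dbp and to Arntl. Nr1d1, Nr1d2, Hlf and Rorb were named beside this rule, after their values were seen. One listed gene is not reported here. Other pseudocounts, filters, scalings, voom on recovered reads, a replicate block and leaving out libraries were tried.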

Additional observations from a re-analysis of the deposited data

How the results depend on the processing

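Cry2 was lower under every setting run, but its call depended on the setting. The call was lost after quantile normalization and with upper quartile scaling (limma, adjusted p = 0.0688 and 0.0578). In both of these the 1 member called lower was Cry1. No member was lower at the threshold (0) without a filter on low values or with the replicate block, where Cry2 had adjusted p of 0.0563 and 0.0882, and 2 were (Cry2 and Clock) without creeping fat 2 and control 2 together, a setting added after the data were seen in which 1 member (Per1) was higher. With 1 library left out, 0 to 2 members were lower and 0 to 1 higher, the most without control 2. Over all genes 576 to 2896 were higher and 287 to 1857 lower, again the most without control 2. Without creeping fat 2 and control 2 together these counts were 2713 and 1731, the median of all genes tested moved to 0.15, and Per3, Dbp and Nr1d1 changed sign, to 0.0178, -0.00284 and -0.077. With 1 library left out the sign also turned for Per3 (-0.25 to 0.01), Dbp (-0.0211 to 0.975), Tef (-0.0515 to 0.242) and Nr1d1 (-0.11 to 0.23), whose adjusted p stayed above the threshold throughout. The cause was not tested. The ratio of Dbp to Arntl ranged from 0.36 to 1.97 and that of Per3 to Npas2 from -0.91 to -0.37 on the log2 scale, and no ratio changed sign.

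The replicate block called 636 genes higher and 378 lower, against 1198 and 872 without it, and besides Cry2 it ended the calls of Nfil3, Cdkn1a and Sgk1 (adjusted p = 0.0729, 0.143 and 0.0767). Deviations from the group means did not go together in samples of the same number (r across genes of -0.181, -0.18 and -0.081 for 1 to 3). Samples of different numbers gave r of -0.138 to 0.243. These values cannot decide whether the numbers pair samples, since they run over all genes of libraries that differ in composition. The sample titles give only a group and a number, and the numbers were not taken to pair samples. With 3 libraries a group, 0.1 is the smallest p of an exact permutation test.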
